A study of Mus musculus with 8 samples.

Results

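The Slc25 genes encode the mitochondrial carriers, the transporters that move nucleotides, amino acids, carboxylic acids, coenzymes and ions across the inner mitochondrial membrane. The members were all genes of the deposited count table whose symbol is Slc25a followed by a number, apart from Slc25a37 and Slc25a38, and this rule gave 42 of the 23337 genes in the table. No measured value entered the rule. Their RNA was read in bone marrow cells of C57BL/6 mice aged 4 months that carried JAK2 V617F on 1 allele, the change that activates the kinase JAK2 in polycythemia vera. There were 4 groups of 2 libraries: erythroblasts labelled Plek2-/-, erythroblasts labelled Plek2+/+, progenitors labelled Plek2-/- and progenitors labelled Plek2+/+. Erythroblasts, the nucleated precursors of red cells, were TER119-positive bone marrow cells, and the progenitors were stem and progenitor cells taken as the Kit-positive part of the lineage-negative marrow. Every group carried the JAK2 change, so no library shows the carriers without it. No source used here says how the Plek2 allele was made or whether replicate libraries are from different mice, so the p-values measure only how far libraries differ, which may be technical.

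Mitochondrial carriers are built from repeats of a pair of membrane-spanning helices and open in turn to either side of the inner membrane, most of them trading a substrate for a counter-substrate. The ADP/ATP and phosphate carriers feed ATP synthase, the aspartate/glutamate carriers are part of the shuttle that brings reducing equivalents into mitochondria, and other carriers bring in coenzymes, folate or glutathione. Red cell precursors place a special load on the system, because heme synthesis starts and ends in mitochondria and needs glycine, iron, coenzyme A and pyridoxal-dependent enzymes there before the organelles are cleared from the ripening cell.

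The promoters of 5 members are shown because the results below turn on these genes: Slc25a39, Slc25a40 and Slc25a21 were higher in erythroblasts, Slc25a13 was lower there, and Slc25a24 was the member that differed between the Plek2 labels in progenitors. Each runs from 250 bases before to 50 bases after the RefSeq start of the gene on GRCm38.p6, is written 5′ to 3′ on the strand of the gene, and has in capitals every match to CCNCNCCC on either strand, overlapping matches included. This is a loose form of the CACCC and GC boxes that KLF and SP factors, among them the erythroid factor Klf1, are known to bind.
Slc25a39, chr11:102407468-102407767, minus strand: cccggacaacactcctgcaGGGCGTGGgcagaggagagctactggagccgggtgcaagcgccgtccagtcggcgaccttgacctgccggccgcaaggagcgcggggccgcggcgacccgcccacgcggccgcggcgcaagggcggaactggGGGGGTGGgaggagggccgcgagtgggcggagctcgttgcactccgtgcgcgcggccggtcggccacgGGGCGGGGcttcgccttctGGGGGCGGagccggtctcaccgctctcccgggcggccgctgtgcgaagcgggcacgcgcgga
Slc25a40, chr5:8422588-8422887, plus strand: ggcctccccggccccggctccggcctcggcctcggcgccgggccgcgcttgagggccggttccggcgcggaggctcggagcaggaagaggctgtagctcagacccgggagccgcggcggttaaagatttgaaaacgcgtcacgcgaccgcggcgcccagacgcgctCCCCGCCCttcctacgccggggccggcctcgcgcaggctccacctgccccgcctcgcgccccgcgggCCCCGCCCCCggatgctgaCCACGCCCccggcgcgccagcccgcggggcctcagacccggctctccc
Slc25a21, chr12:57197423-57197722, minus strand: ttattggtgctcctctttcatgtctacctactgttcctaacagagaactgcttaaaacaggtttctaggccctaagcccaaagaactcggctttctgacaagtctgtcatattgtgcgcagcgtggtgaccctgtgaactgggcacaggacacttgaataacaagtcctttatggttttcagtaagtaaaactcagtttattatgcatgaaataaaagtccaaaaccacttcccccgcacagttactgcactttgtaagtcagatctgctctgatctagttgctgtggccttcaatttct
Slc25a13, chr6:6217124-6217423, minus strand: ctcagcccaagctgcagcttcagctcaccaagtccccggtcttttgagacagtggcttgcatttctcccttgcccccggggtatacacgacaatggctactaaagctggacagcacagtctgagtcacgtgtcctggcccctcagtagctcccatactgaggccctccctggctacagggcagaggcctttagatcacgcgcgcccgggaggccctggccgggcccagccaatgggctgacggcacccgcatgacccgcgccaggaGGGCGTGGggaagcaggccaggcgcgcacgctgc
Slc25a24, chr3:109122899-109123198, plus strand: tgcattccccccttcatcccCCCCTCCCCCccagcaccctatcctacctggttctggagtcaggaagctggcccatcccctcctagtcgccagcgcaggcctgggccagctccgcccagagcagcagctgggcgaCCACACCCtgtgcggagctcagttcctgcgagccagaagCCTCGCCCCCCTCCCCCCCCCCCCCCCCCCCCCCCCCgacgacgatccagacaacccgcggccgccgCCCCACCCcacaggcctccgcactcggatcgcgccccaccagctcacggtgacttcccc
The promoter of Slc25a21 held no such match, that of Slc25a13 held 1, and those of Slc25a39 and Slc25a40 held 4 each. The 25 overlapping matches in the Slc25a24 promoter lie mostly in an unbroken run of C. RefSeq listed a promoter for 33 of the 42 members, and 25 of these (75.76%) held the motif, against 49.12% of all 27025 promoters. Members' promoters were also richer in G and C, with a median of 60.67% against 52.67% for all promoters. The motif was present in 5 of the 7 listed promoters of members that were higher in erythroblasts with both Plek2 labels and in 8 of the 10 of members that were lower. The letters AGATAA, which the erythroid factor Gata1 and its relatives are known to bind, were searched on both strands and found in 1 member promoter, that of Slc25a5, against 11.41% of all promoters. The motif of NRF1, a regulator of nuclear genes for mitochondrial proteins, was found in 2, those of Slc25a3 and Slc25a31, against 4.784% of all promoters. A match describes letters in this window and says nothing about binding.

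Library totals ran from 16038035 to 23521726 counts, and a count of 0 allows up to 3 counts, which is 0.0983 to 0.235 CPM (counts-per-million) for counting error alone. CPM values are on library totals scaled by edgeR's trimmed mean of M-values (TMM). Plek2 itself checked the labels. It stood at 48.2 and 53.1 CPM in Plek2-/- erythroblasts and 108 and 129 CPM in Plek2+/+ erythroblasts, but at 5.06 and 5.67 CPM in Plek2-/- progenitors and 1.36 and 0.708 CPM in Plek2+/+ progenitors, so the counts go against the label in progenitors. Genotype names therefore stand for the labels. Xist, made from the inactive X chromosome of female cells, was at 2.13 to 3.6 CPM in the 4 libraries labelled Plek2-/- and 2523 to 3044 CPM in the 4 labelled Plek2+/+, so sex and label cannot be told apart. Markers of the named cell types differed in the direction of the names. The 12 erythroblast markers summed to between 105981 and 129225 CPM in erythroblasts and between 1131 and 1316 CPM in progenitors. The 12 stem and progenitor markers summed to between 202 and 292 CPM in erythroblasts and between 1122 and 1265 CPM in progenitors. Neither population was free of neutrophil RNA: 11 neutrophil markers summed to between 13511 and 22417 CPM in erythroblasts and between 4395 and 25305 CPM in progenitors.

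Of the 42 members, 32 averaged at least 1 CPM in erythroblasts and 38 did so in progenitors. At 10 CPM or more there were 26 in erythroblasts and 25 in progenitors. Slc25a48 had no count in any library, which allows 3 counts in each, and Slc25a31 (a testis ADP/ATP carrier) and Slc25a41 had no more than 3 counts in any library. The genes lie on 19 chromosomes, with Slc25a5, Slc25a14 and Slc25a43 on the X. Merged exons ran from 1331 to 9594 bases, so levels are compared between genes per kilobase of exon (CPM per kilobase). No source used here states the strand setting of the counts, and reads cannot be assigned to a strand where exons of a gene on the other strand overlap. This concerns Slc25a35 most, with 1151 bases shared with Rangrf, followed by Slc25a46 with 383 bases shared with B930094E09Rik and Slc25a25 with 379 shared with Naif1.

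The most abundant of the 42 members differed between the populations. In erythroblasts Slc25a39, which imports glutathione into mitochondria, led the members at 206 ± 6.20 CPM per kilobase (SD over 4 libraries), followed by the ADP/ATP carrier Slc25a5 at 83.9 ± 5.43 and the phosphate carrier Slc25a3 at 41.7 ± 2.62 CPM per kilobase. Each of these 3 stood apart from the next in all 4 libraries, while neighbours from the fourth rank, Slc25a11, down to the tenth, Slc25a17, overlapped. In progenitors Slc25a5 led them at 74.2 ± 7.37 CPM per kilobase, and Slc25a3 (40.3 ± 3.35), Slc25a4 (36.8 ± 5.28) and Slc25a11 (34.9 ± 2.03) followed with ranges that overlapped from each to the next. Slc25a39 ranked 5 there, at 20.1 ± 1.67 CPM per kilobase, and overlapped Slc25a24 below it at 18.9 ± 4.08. These ranks cover the members alone; Slc25a37, outside the rule, was at 445 ± 34.1 CPM per kilobase in erythroblasts. The ranks describe the libraries and were not tested.

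**Figure D1:**
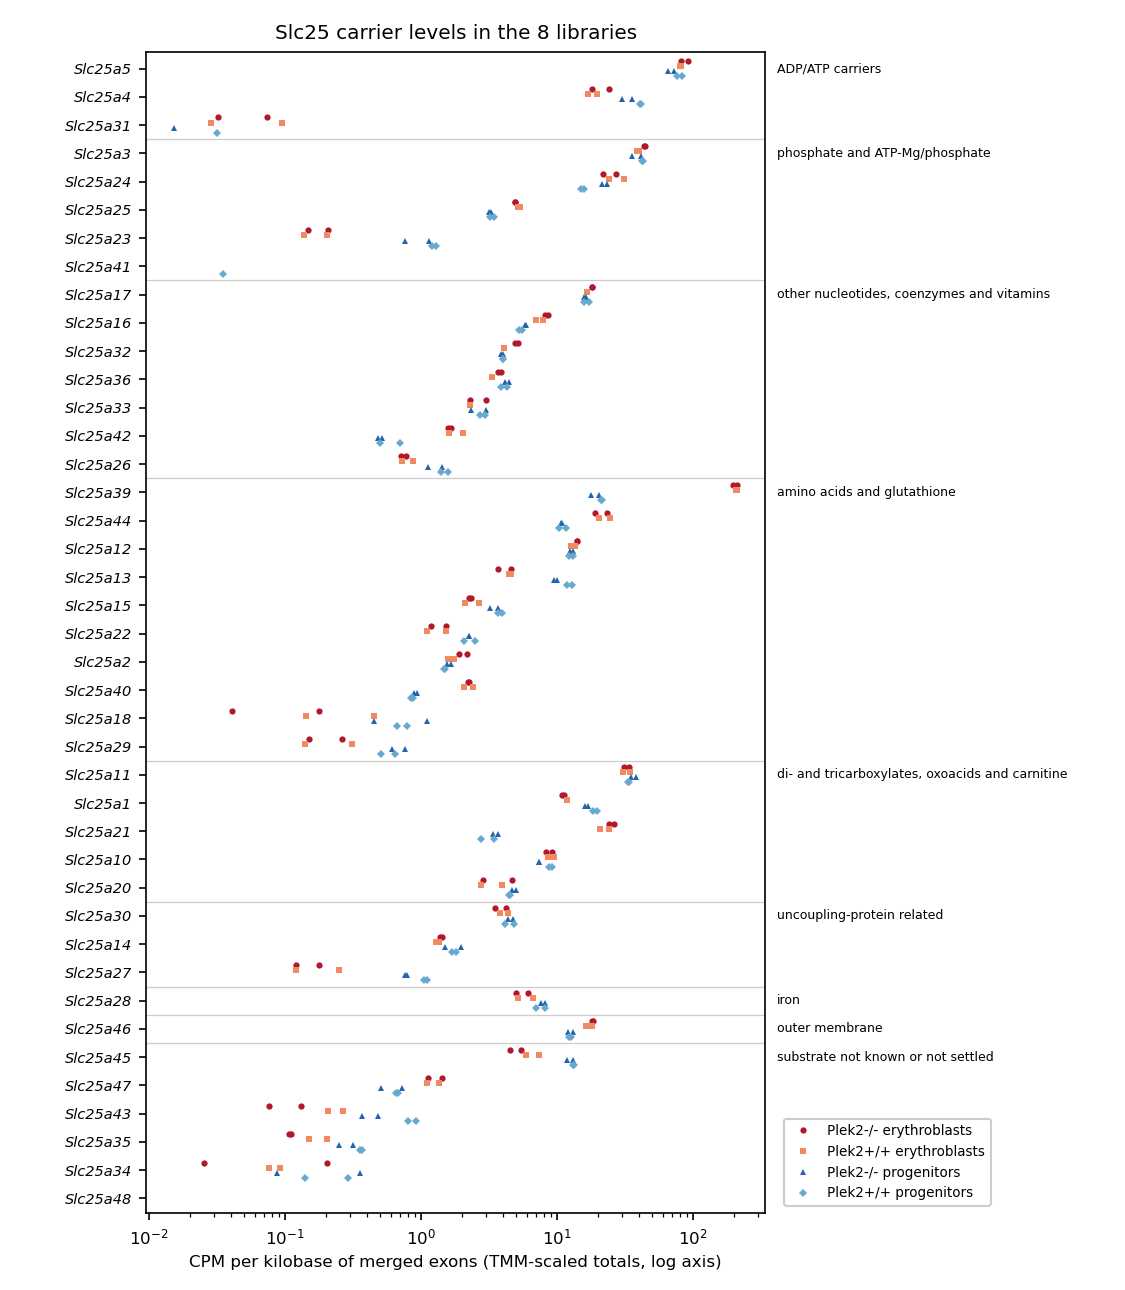
Level of 41 Slc25 members in every library, in CPM per kilobase of merged exons on a log axis, grouped by the role of the carrier; each point is 1 library and counts of 0 are not drawn. Slc25a39 stands between 196 and 210 CPM per kilobase in erythroblasts and between 17.6 and 21.3 in progenitors. The ranges of Slc25a5, Slc25a3 and Slc25a11 overlap between the populations on these TMM-scaled totals.

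The makeup of carrier RNA by role followed the same gene. Carriers of amino acids and glutathione made up 43.1% ± 1.63 of members' RNA per length in erythroblasts (SD over 4 libraries) and 16.5% ± 0.275 in progenitors. ADP/ATP carriers made up 17.6% ± 1.28 in erythroblasts and 28.5% ± 1.94 in progenitors. Carriers of di- and tricarboxylates, oxoacids and carnitine took 13.6% ± 0.351 in erythroblasts and 17.7% ± 0.625 in progenitors, and the ranges of the populations did not overlap for any of these roles. Slc25a39 alone was 35.0% of members' RNA per length in erythroblasts and 5.15% in progenitors, which lowers every other share in erythroblasts. A lower share of another role therefore need not be a lower level, and shares without Slc25a39 were not computed. Summed over members, carrier RNA was 1897 to 1971 CPM in erythroblasts and 1249 to 1370 CPM in progenitors. Slc25a39 alone made up 27.5% to 30.1% of that sum in erythroblasts and 3.89% to 4.42% in progenitors, and without it the sums were 1326 to 1430 CPM in erythroblasts and 1200 to 1313 CPM in progenitors. On library totals without TMM the order of the sum turned round, with 1444 to 1503 CPM in erythroblasts and 1621 to 1818 CPM in progenitors.

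Erythroblasts were compared with progenitors within each Plek2 label, in 1 edgeR quasi-likelihood fit of all 8 libraries, with calls made below an adjusted p of 0.05 (Benjamini-Hochberg over all 13365 genes tested). In bulk RNA, fewer cells of a type and less RNA per cell cannot be told apart. Of the 39 members that passed the count filter, 28 were called with the Plek2-/- label, 13 higher and 15 lower in erythroblasts, against 76.7% of all genes called (37.5% higher and 39.2% lower). With the Plek2+/+ label 25 were called, 10 higher and 15 lower, against 73.8% of all genes (36.0% higher and 37.8% lower). The members' shares of 71.8% and 64.1% lie below those backgrounds. The libraries of the populations did not overlap for 36 members (92.3%) with the Plek2-/- label, against 87.9% of all genes, and for 33 (84.6%) with the Plek2+/+ label, against 89.1%. The median log2 fold change of the members was -0.18 with the Plek2-/- label and -0.29 with the Plek2+/+ label, against -0.07 and -0.06 for all genes. Both comparisons found 23 of the same members, 9 higher and 14 lower, and no member was called in opposite directions. The 9 were higher by 1.37-fold to 10.7-fold and the 14 lower by 1.28-fold to 7.24-fold.

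The direction of small changes rests on the scaling. On library totals alone the median log2 fold change of all genes moved to -0.86 with the Plek2-/- label and -0.87 with the Plek2+/+ label, and 35 members were called with either label, 4 higher and 31 lower. Of the 28 calls with the Plek2-/- label, 7 had the other sign under that scaling, and of the 25 with the Plek2+/+ label 3 did. An adjusted p below 0.05, in either direction, held under every alternative tried for 20 of the 28 and for 17 of the 25. Some of these were called in the other direction on library totals. With the Plek2-/- label they were Slc25a46, Slc25a5, Slc25a16 and Slc25a32, and with the Plek2+/+ label Slc25a46 and Slc25a16.

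**Figure D2:**
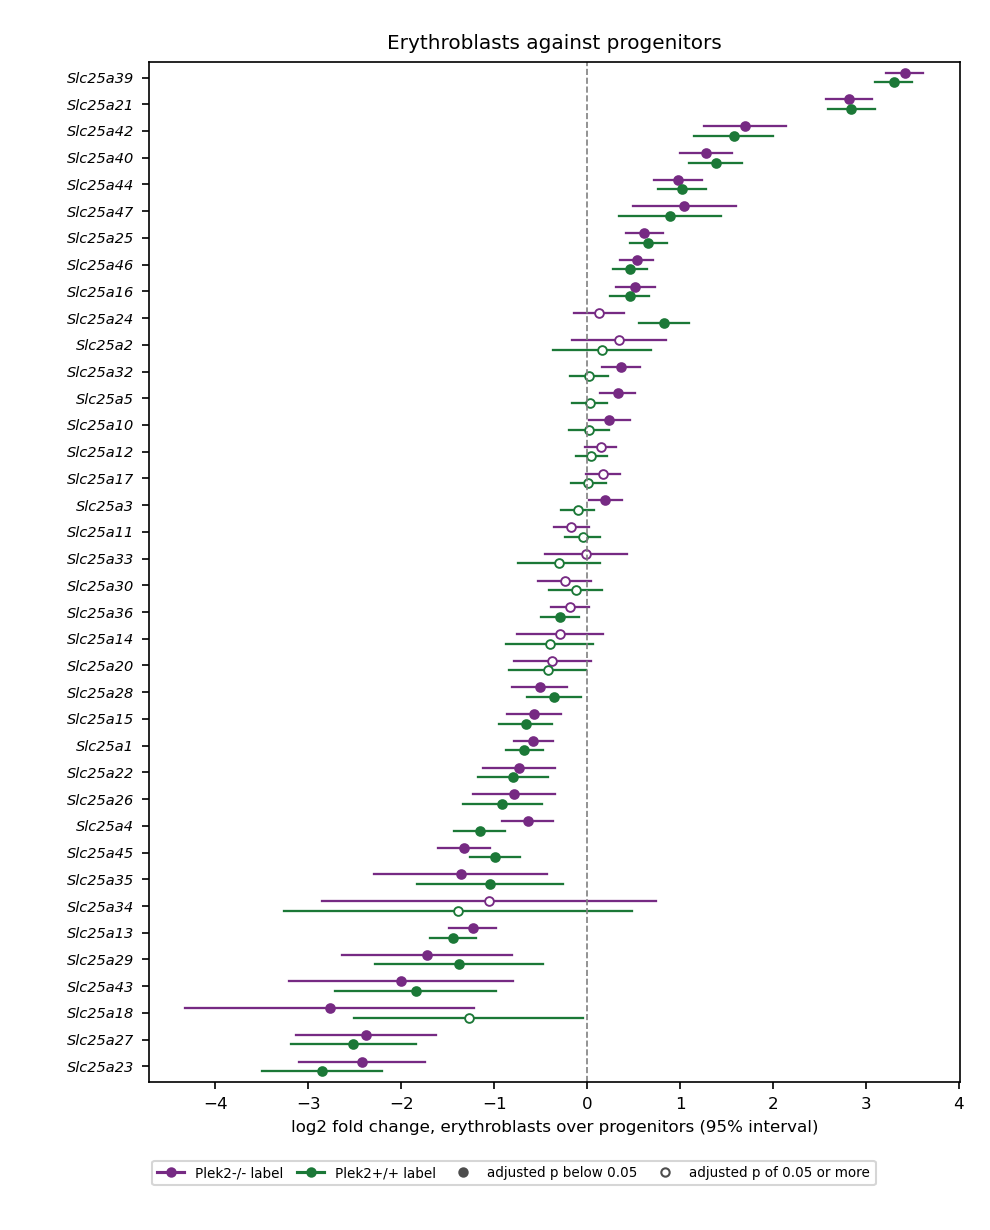
Log2 fold change of 38 tested members, erythroblasts over progenitors, with its 95% confidence interval, for the libraries labelled Plek2-/- and those labelled Plek2+/+; filled points have an edgeR adjusted p below 0.05. Slc25a39 and Slc25a21 stand highest, at 2.82 or more with either label, and Slc25a23 and Slc25a27 are the lowest of those called with both.

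Among carriers of amino acids and glutathione, 3 of 10 tested members were higher in erythroblasts with both labels, and 5 were lower with the Plek2-/- label and 4 with the Plek2+/+ label. Slc25a39 had 541 and 578 CPM in Plek2-/- erythroblasts and 571 and 577 CPM in Plek2+/+ erythroblasts, against 56.2 and 48.5 CPM in Plek2-/- progenitors and 58.8 and 57.5 CPM in Plek2+/+ progenitors. All 4 erythroblast libraries stood far above all 4 progenitor libraries. The log2 fold change was 3.42 (SE 0.09, 10.7-fold higher, adjusted p = 2.73e-12) with the Plek2-/- label and 3.30 (SE 0.09, 9.87-fold higher, adjusted p = 3.74e-12) with the Plek2+/+ label. Its closest relative Slc25a40, which also carries glutathione, had 18.5 and 18.8 CPM in Plek2-/- erythroblasts and 17.3 and 20.2 CPM in Plek2+/+ erythroblasts, against 7.48 and 7.86 CPM in Plek2-/- progenitors and 7.28 and 7.05 CPM in Plek2+/+ progenitors. It was higher in erythroblasts by 2.43-fold with the Plek2-/- label and 2.61-fold with the Plek2+/+ label, with no overlap. Per length Slc25a40 was the minor partner throughout, at 1.07% of the summed RNA of both genes in erythroblasts and 4.26% in progenitors.

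Slc25a44, a carrier of branched-chain amino acids, had 68.2 and 84.0 CPM in Plek2-/- erythroblasts and 72.5 and 88.2 CPM in Plek2+/+ erythroblasts, against 38.3 and 38.8 CPM in Plek2-/- progenitors and 37.1 and 41.8 CPM in Plek2+/+ progenitors. It was higher in erythroblasts by 1.98-fold and 2.03-fold, with the Plek2-/- and Plek2+/+ label in turn, and the ranges did not overlap. On library totals both calls were lost, at 0.19 (adjusted p = 0.124) and 0.21 (adjusted p = 0.104) on the log2 scale. The 2 aspartate/glutamate carriers gave different calls. Slc25a13 (citrin) had 17.5 and 14.0 CPM in Plek2-/- erythroblasts and 17.0 and 17.4 CPM in Plek2+/+ erythroblasts, against 37.8 and 36.1 CPM in Plek2-/- progenitors and 44.8 and 48.8 CPM in Plek2+/+ progenitors. It was lower in erythroblasts by 2.35-fold with the Plek2-/- label (adjusted p = 5.21e-07) and by 2.72-fold with the Plek2+/+ label (adjusted p = 9.76e-08). Slc25a12 (aralar), which does the same exchange, averaged 99.8 ± 4.63 CPM in erythroblasts and 93.2 ± 3.14 CPM in progenitors (SD, n = 4 libraries each) and was not called with either label.

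The ornithine carrier Slc25a15 was lower in erythroblasts by 1.49-fold with the Plek2-/- label and 1.58-fold with the Plek2+/+ label, and the glutamate carrier Slc25a22 by 1.66-fold and 1.73-fold. Slc25a2, a second ornithine carrier, was at 2.17 to 2.99 CPM in erythroblasts and 2.02 to 2.26 CPM in progenitors and was not called. Slc25a29, a carrier of basic amino acids, and Slc25a18, the second glutamate carrier, rest on few counts. Slc25a29 had 5 to 12 counts a library in erythroblasts and 28 to 61 in progenitors and was called lower with both labels, though with the Plek2+/+ label not without progenitor library 2 (adjusted p = 0.0725) or erythroblast library 1 (0.149). Slc25a18 had 1 to 14 counts a library in erythroblasts and 22 to 65 in progenitors, and was called lower with the Plek2-/- label (log2 fold change -2.77, SE 0.72, adjusted p = 0.0033) but not with the Plek2+/+ label (-1.27, SE 0.57, adjusted p = 0.0585). With the Plek2+/+ label it passed on library totals (adjusted p = 0.00379), without a filter (0.00664), in the 4 compared libraries alone (0.0155) and without Plek2+/+ erythroblast library 1 (0.0395). The difference of these contrasts is the interaction, and it was not called for Slc25a18 (-1.50, SE 1.01, adjusted p = 0.478).

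The balance of the ADP/ATP carriers differed between the populations. Slc25a4 (ANT1), the form known from heart and muscle, had 56.3 and 42.5 CPM in Plek2-/- erythroblasts and 46.5 and 39.8 CPM in Plek2+/+ erythroblasts, against 83.1 and 70.5 CPM in Plek2-/- progenitors and 97.2 and 95.5 CPM in Plek2+/+ progenitors. No erythroblast library reached the lowest progenitor library. Slc25a4 was lower in erythroblasts by 1.56-fold with the Plek2-/- label (log2 fold change -0.64, SE 0.13, adjusted p = 0.000486) and by 2.23-fold with the Plek2+/+ label (-1.16, SE 0.13, adjusted p = 2.73e-06). Slc25a5 (ANT2), the form known from dividing cells, had 151 and 133 CPM in Plek2-/- erythroblasts and 133 and 135 CPM in Plek2+/+ erythroblasts, against 120 and 107 CPM in Plek2-/- progenitors and 126 and 136 CPM in Plek2+/+ progenitors. It was called higher with the Plek2-/- label at 1.26-fold, a direction that turned on library totals (-0.46 on the log2 scale), and was not called with the Plek2+/+ label. Per length, Slc25a4 made up 17.1% to 20.7% of the pair in erythroblasts and 31.5% to 35.1% in progenitors, a share within a library that no scaling moves.

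**Figure D3:**
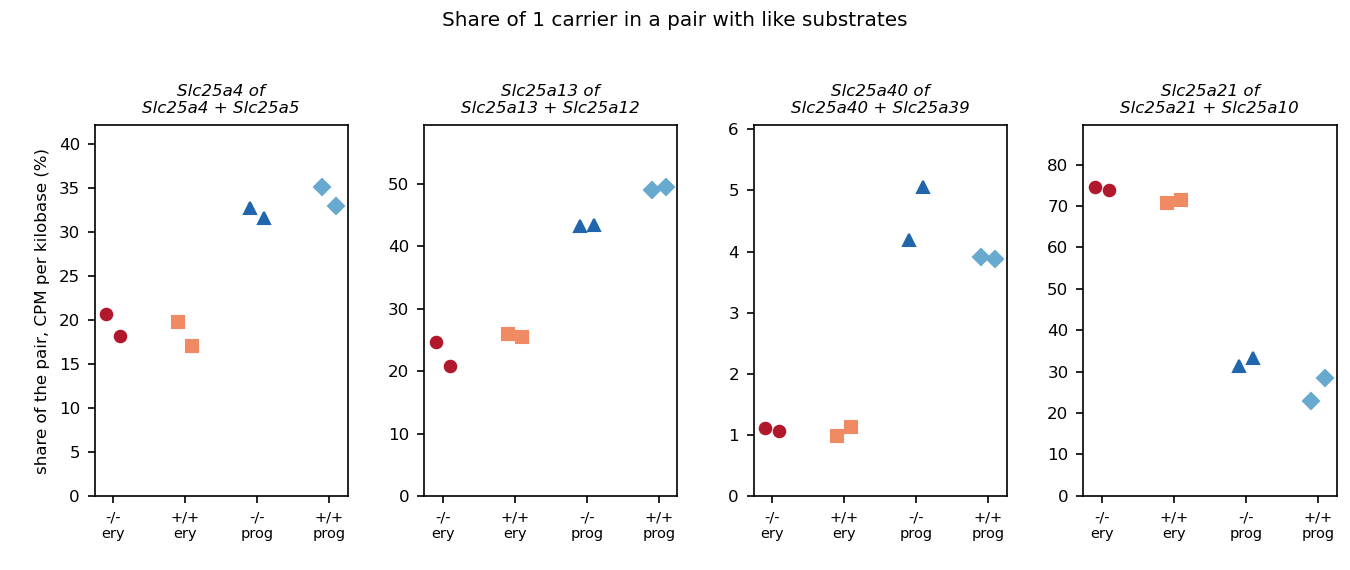
Share of 1 carrier in the summed CPM per kilobase of a pair, in percent, for every library; the axis starts at 0, ery stands for erythroblasts, prog for progenitors, and -/- and +/+ for the Plek2 labels. The shares of Slc25a4, Slc25a13 and Slc25a40 are lower in all erythroblast libraries than in any progenitor library, and that of Slc25a21 is higher.

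The phosphate carrier brings in phosphate for ATP synthesis, and the ATP-Mg/phosphate carriers adjust the nucleotide content of the matrix. Slc25a3 had 242 and 245 CPM in Plek2-/- erythroblasts and 223 and 215 CPM in Plek2+/+ erythroblasts, against 228 and 196 CPM in Plek2-/- progenitors and 237 and 234 CPM in Plek2+/+ progenitors. Its only call was with the Plek2-/- label, at 1.15-fold higher (adjusted p = 0.0439), and on library totals it turned to -0.59 on the log2 scale. That call was also lost without a filter on low counts (adjusted p = 0.109), at a mean of at least 1 CPM (0.121), in the 4 compared libraries alone (0.113), and without Plek2-/- progenitor library 2 (0.336) or Plek2-/- erythroblast library 1 (0.0728) or 2 (0.133). Slc25a25 was higher in erythroblasts with both labels, by 1.53-fold and 1.58-fold, from 38.8 to 41.9 CPM in erythroblasts against 24.9 to 26.9 CPM in progenitors, but on library totals the sign turned with either label (-0.17 and -0.15). Slc25a23 went the other way, with 10 to 16 counts a library in erythroblasts and 104 to 201 in progenitors. It was 5.36-fold lower with the Plek2-/- label and 7.24-fold lower with the Plek2+/+ label, and it is the lowest of the members called with both labels. Slc25a41, with 1 count over all libraries, is its neighbour on chromosome 17, 2056 bases away.

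Slc25a21, which carries oxoadipate and other oxodicarboxylates, had 118 and 127 CPM in Plek2-/- erythroblasts and 101 and 117 CPM in Plek2+/+ erythroblasts, against 16.5 and 18 CPM in Plek2-/- progenitors and 13.4 and 16.8 CPM in Plek2+/+ progenitors. The groups lay far apart, and the gene was higher in erythroblasts by 7.06-fold (log2 fold change 2.82, SE 0.12) with the Plek2-/- label and by 7.19-fold (2.85, SE 0.12) with the Plek2+/+ label. Its exons share 189 bases with Pax9 on the other strand. The dicarboxylate carrier Slc25a10 averaged 30.8 ± 2.07 CPM in erythroblasts and 28.3 ± 3.19 CPM in progenitors, so Slc25a21 made up 72.6% of the pair per length in erythroblasts and 29.0% in progenitors. Slc25a10 was called higher in erythroblasts with the Plek2-/- label alone (log2 fold change 0.24), and turned to -0.55 on library totals. That call was also lost with DESeq2 (adjusted p = 0.0746) and, in edgeR, without a filter on low counts (0.12) and with the replicate block (0.0531). The citrate carrier Slc25a1 was lower in erythroblasts by 1.49-fold with the Plek2-/- label and 1.60-fold with the Plek2+/+ label. Neither the oxoglutarate/malate carrier Slc25a11, at 64.5 to 72.8 CPM in erythroblasts and 70.5 to 79.9 CPM in progenitors, nor the carnitine/acylcarnitine carrier Slc25a20 was called with either label.

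Of 8 carriers of other nucleotides, coenzymes and vitamins, 3 were higher and 2 lower in erythroblasts with the Plek2-/- label, and 2 higher and 3 lower with the Plek2+/+ label. Slc25a42, a coenzyme A carrier, had 9.94 and 9.52 CPM in Plek2-/- erythroblasts and 9.55 and 12.3 CPM in Plek2+/+ erythroblasts, against 2.88 and 3.08 CPM in Plek2-/- progenitors and 3.01 and 4.18 CPM in Plek2+/+ progenitors. It was higher by 3.25-fold with the Plek2-/- label and 2.99-fold with the Plek2+/+ label, with no overlap. Slc25a16, linked to coenzyme A in yeast, was higher by 1.43-fold and 1.37-fold, and turned to -0.27 and -0.36 on the log2 scale on library totals. The S-adenosylmethionine carrier Slc25a26 was lower in erythroblasts by 1.73-fold and 1.88-fold, with the Plek2-/- and Plek2+/+ label in turn. The folate carrier Slc25a32 was called higher with the Plek2-/- label alone, at 1.29-fold (turned to -0.42 on the log2 scale on library totals), and the pyrimidine nucleotide carrier Slc25a36 lower with the Plek2+/+ label alone, at 1.22-fold. The Slc25a36 call was lost with DESeq2 (adjusted p = 0.0577) and without Plek2+/+ progenitor library 2 (0.177) or Plek2+/+ erythroblast library 1 (0.138) or 2 (0.0961). Their interactions were not called (adjusted p = 0.188 for Slc25a32 and 0.72 for Slc25a36). Slc25a17, a peroxisomal carrier, and the pyrimidine nucleotide carrier Slc25a33 were not called.

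Slc25a28 (mitoferrin-2), the iron importer found in most tissues, averaged 21.4 ± 2.85 CPM in erythroblasts and 29.0 ± 1.96 CPM in progenitors and was lower in erythroblasts by 1.43-fold with the Plek2-/- label and 1.28-fold with the Plek2+/+ label. The call with the Plek2+/+ label was lost with DESeq2 (adjusted p = 0.0531), without Plek2+/+ progenitor library 2 (0.211) and without Plek2+/+ erythroblast library 2 (log2 fold change -0.15, adjusted p = 0.396). The genes left out by the rule moved the other way and further: Slc25a37 (mitoferrin-1), the iron importer of erythroid cells, was at 2526 to 2972 CPM in erythroblasts and 47.4 to 63.2 CPM in progenitors, and Slc25a38, which is needed for glycine entry in heme synthesis, at 254 to 282 CPM and 24.2 to 24.4 CPM. Slc25a46, which sits in the outer membrane and acts on mitochondrial shape, averaged 95.9 ± 5.44 CPM in erythroblasts and 68 ± 2.66 CPM in progenitors, and its rise of 1.45-fold and 1.37-fold turned to -0.25 and -0.36 on the log2 scale on library totals. Of the uncoupling-protein relatives, Slc25a27 (UCP4) was lower in erythroblasts by 5.21-fold and 5.72-fold, on 7 to 16 counts a library in erythroblasts and 80 to 123 in progenitors. Slc25a14 and Slc25a30 were not called with either label.

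Among the 5 tested members with no settled substrate, 1 was higher and 3 lower in erythroblasts with either label. Slc25a47, known from liver, was higher by 2.07-fold with the Plek2-/- label and 1.86-fold with the Plek2+/+ label, at 3.33 to 4.28 CPM in erythroblasts and 1.52 to 2.16 CPM in progenitors. On library totals both calls were lost, at 0.26 (adjusted p = 0.352) and 0.08 (adjusted p = 0.771) on the log2 scale. It lies head to head with Slc25a29 on chromosome 12, where 162 bases separate Slc25a29 (108825873 to 108835883, minus strand, GRCm38) from Slc25a47 (108836046 to 108856815, plus strand), and the neighbours differed in opposite directions. Slc25a45 was lower in erythroblasts by 2.5-fold and 1.99-fold, at 12.5 to 20.3 CPM in erythroblasts and 32.6 to 36.7 CPM in progenitors. Slc25a43 was lower on 2 to 7 counts a library in erythroblasts against 20 to 42 in progenitors, and its neighbour on the X, Slc25a5, 18448 bases away, was not. The Slc25a43 call with the Plek2-/- label was lost without Plek2-/- erythroblast library 2 (adjusted p = 0.0635). Slc25a35 was called lower too, on 5 to 11 counts a library in erythroblasts, and 1151 of its 3677 exon bases are shared with Rangrf. DESeq2 did not call it with the Plek2-/- label (adjusted p = 0.0654) or the Plek2+/+ label (0.132). With the Plek2-/- label its call was lost without progenitor library 1 (0.058) or erythroblast library 1 (0.0564) or 2 (0.0587), and with the Plek2+/+ label without progenitor library 1 (0.0611) or 2 (0.0875) or erythroblast library 1 (0.171).

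Within erythroblasts, the Plek2 labels, which cannot be told apart from sex, were compared in a fit of the 4 erythroblast libraries alone. Of the 35 members tested 0 were called by edgeR, against 2.84% of all genes (0.18% higher and 2.66% lower), and DESeq2 and limma-voom also called 0. At an unadjusted p below 0.05 there were 2. The folate carrier Slc25a32 had 31.6 and 29.8 CPM in Plek2-/- erythroblasts and 24.8 and 24.6 CPM in Plek2+/+ erythroblasts (log2 fold change 0.32, SE 0.11, adjusted p = 0.185). Slc25a45 had 15 and 12.5 CPM in Plek2-/- erythroblasts and 20.3 and 16.4 CPM in Plek2+/+ erythroblasts (-0.41, SE 0.16, adjusted p = 0.24). For both genes the labels did not overlap, as was the case for 13 of the 35 members (37.1%) and for 45.5% of all genes. The 95% interval of the log2 fold change lay between -1 and 1 for 32 of the 35 members, and the others, Slc25a23, Slc25a27 and Slc25a29, have few counts here. The most abundant member, Slc25a39, had a log2 fold change of -0.03 (95% interval -0.23 to 0.18), Slc25a3 of 0.16 (-0.03 to 0.35) and Slc25a5 of 0.10 (-0.10 to 0.30).

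Within progenitors 1 of 39 tested members was called, and it was higher in Plek2-/- progenitors, against 4.91% of all genes called (4.5% higher and 0.402% lower). Slc25a24, an ATP-Mg/phosphate carrier regulated by calcium, had 73.5 and 79.7 CPM in Plek2-/- progenitors and 51.7 and 53.9 CPM in Plek2+/+ progenitors. The labels did not overlap. The log2 fold change was 0.58 (SE 0.07, 95% interval 0.41 to 0.75, 1.49-fold higher, adjusted p = 0.00392), and the call held in all 12 alternatives, with values from 0.52 to 0.63 and adjusted p from 1.2e-08 to 0.0431. In erythroblasts the same gene had 93.3 and 74.4 CPM with the Plek2-/- label and 82.3 and 106 CPM with the Plek2+/+ label, which overlap (log2 fold change -0.16, SE 0.13, adjusted p = 0.634). The interaction, the label difference in erythroblasts minus that in progenitors, was -0.70 for Slc25a24 (SE 0.18, 95% interval -1.08 to -0.32, adjusted p = 0.0329), and no other of the 39 members was called, against 5.55% of all genes (0.232% above 0 and 5.32% below). Between the populations, Slc25a24 was 1.78-fold higher in Plek2+/+ erythroblasts than in Plek2+/+ progenitors (log2 fold change 0.83, SE 0.12, adjusted p = 4.9e-05; 0.01 and not called on library totals), and not called with the Plek2-/- label (0.13, SE 0.12, adjusted p = 0.358). The interaction call was lost without Plek2-/- progenitor library 2 (adjusted p = 0.0981), Plek2-/- erythroblast library 2 (0.0603), Plek2+/+ erythroblast library 2 (0.103) or either Plek2+/+ progenitor library (0.113 and 0.0884).

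Neutrophil marker RNA also differed between the labels. The 11 neutrophil markers, none of them at 0 in any group, summed to 14963 and 13511 CPM in Plek2-/- erythroblasts and 19379 and 22417 CPM in Plek2+/+ erythroblasts, and to 18763 and 25305 CPM in Plek2-/- progenitors and 7399 and 4395 CPM in Plek2+/+ progenitors. All 11 were called higher in Plek2-/- progenitors, 8 were called lower in Plek2-/- erythroblasts, and all 11 had a called interaction below 0. Both measures were lowest in the Plek2+/+ progenitors. With the Plek2+/+ label all 11 markers were called higher in erythroblasts than in progenitors, and so was Slc25a24. With the Plek2-/- label all 11 markers were called lower in erythroblasts than in progenitors, while Slc25a24 was not called. The part of neutrophil RNA in the Slc25a24 values was not tested. Of the related carriers, Slc25a25 had a log2 fold change of 0.00 in progenitors (95% interval -0.19 to 0.20) and Slc25a23 of -0.33 (-0.79 to 0.14), and neither was called; their difference from Slc25a24 was not tested. As a share of the 3 carriers per length, Slc25a24 stood at 84.1% and 84.4% in Plek2-/- progenitors and 77.4% and 76.9% in Plek2+/+ progenitors.

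**Figure D4:**
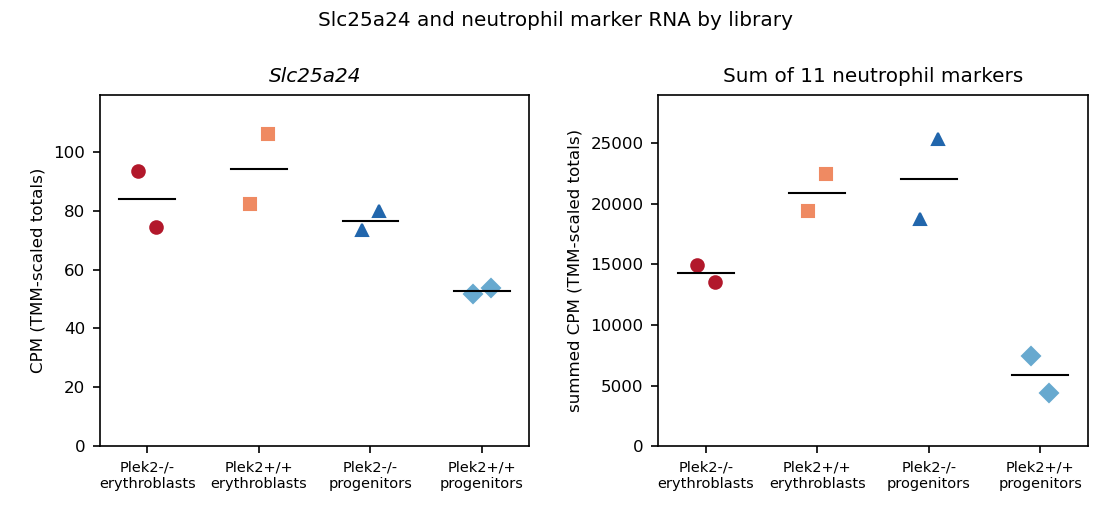
CPM of Slc25a24 (left) and summed CPM of 11 neutrophil markers (right) by library on TMM-scaled totals; points are libraries, lines are the means of 2 libraries, and both axes start at 0. In both panels the Plek2+/+ progenitors are lowest, at 51.7 and 53.9 CPM for Slc25a24 and 7399 and 4395 CPM for the markers.

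The other progenitor differences missed the threshold. At an unadjusted p below 0.05 there were 7 members including Slc25a24. Slc25a13 had 37.8 and 36.1 CPM in Plek2-/- progenitors and 44.8 and 48.8 CPM in Plek2+/+ progenitors (log2 fold change -0.30, SE 0.08, adjusted p = 0.0773), and it passed on library totals (adjusted p = 0.0419), without a filter on low counts (0.024) and without either Plek2-/- progenitor library (0.00185 and 0.0217), while it missed without either Plek2+/+ progenitor library (0.29 and 0.831). Slc25a4 had 83.1 and 70.5 CPM in Plek2-/- progenitors and 97.2 and 95.5 CPM in Plek2+/+ progenitors (-0.29, SE 0.09, adjusted p = 0.13). It passed without a filter on low counts (adjusted p = 0.0146) and without Plek2-/- progenitor library 1 (1.62e-05). Its interaction of 0.52 (adjusted p = 0.134) passed without the filter (0.00987), with the replicate block (0.0455) and without Plek2-/- erythroblast library 2 (0.0262). The X-linked Slc25a43 had 0.857 and 0.655 CPM in Plek2-/- progenitors and 1.64 and 1.42 CPM in Plek2+/+ progenitors (-0.97, SE 0.29, adjusted p = 0.126), and for it sex and label cannot be told apart. The remaining members were Slc25a10 (-0.23), Slc25a27 (-0.43) and Slc25a11 (0.16). The labels did not overlap for 20 of the 39 members (51.3%), against 52.2% of all genes. The 95% interval lay between -1 and 1 for 36 of the 39.

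**Figure D5:**
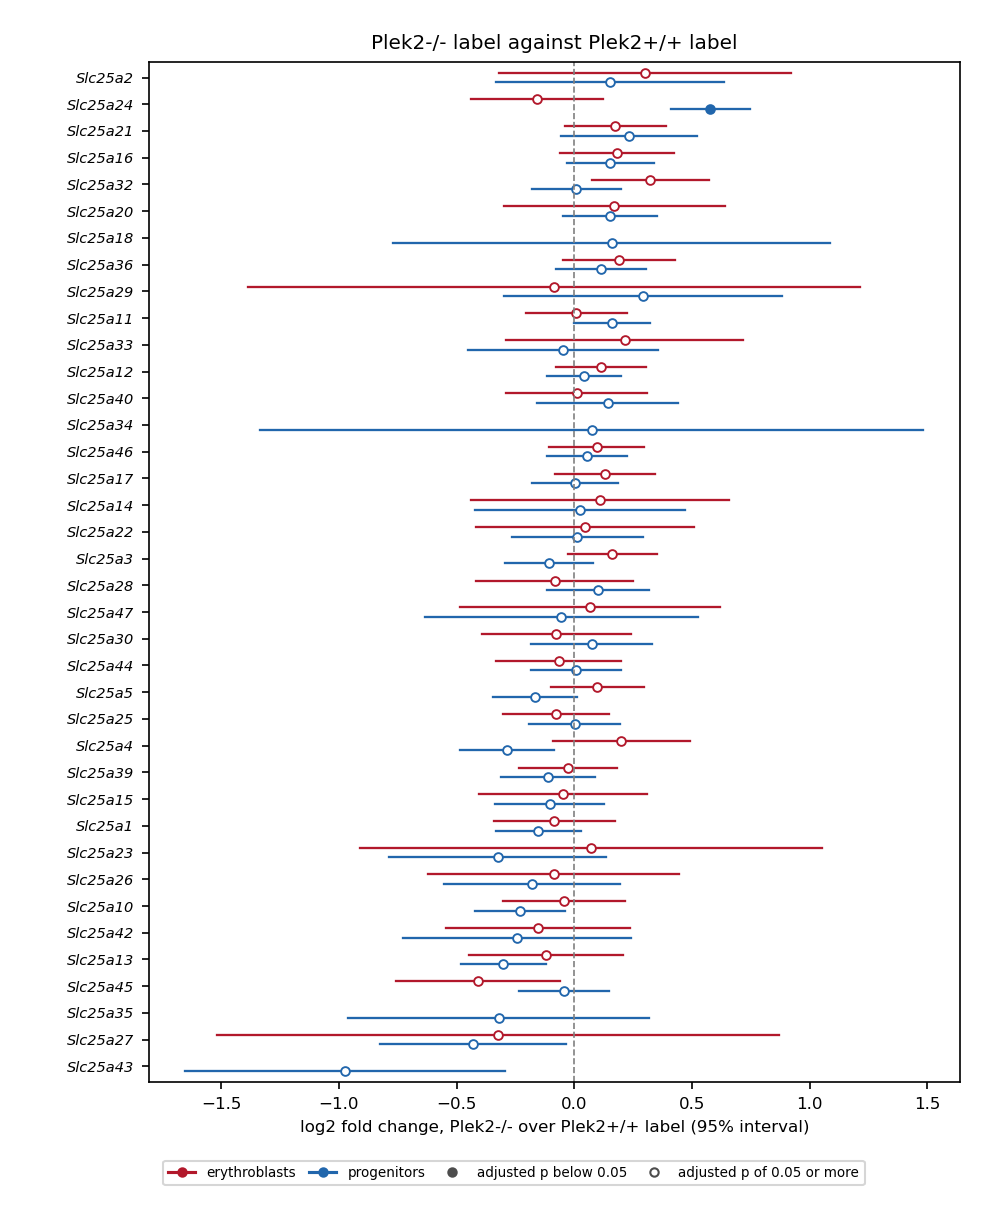
Log2 fold change of 38 tested members, Plek2-/- over Plek2+/+ label, with its 95% confidence interval, in erythroblasts and progenitors; filled points have an edgeR adjusted p below 0.05. The single filled point is Slc25a24 in progenitors at 0.58, and the intervals of most other members cross 0.

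Genes that work with the carriers are given for comparison. Of all genes, 37.5% were called higher and 39.2% lower in erythroblasts with the Plek2-/- label. With the Plek2+/+ label 36.0% were called higher and 37.8% lower. Of 11 tested relatives outside the symbol rule, 4 were higher and 3 lower in erythroblasts with the Plek2-/- label, and 6 higher and 3 lower with the Plek2+/+ label. The uncoupling protein Ucp2 had log2 fold changes of 1.54 and 1.37, and Brp44 (Mpc2, a subunit of the pyruvate carrier) 1.72 and 1.88, with the Plek2-/- and Plek2+/+ label in turn. The sideroflexin Sfxn5 was the relative that differed between the labels in progenitors, with 30.3 and 35.3 CPM in Plek2-/- progenitors and 17.7 and 17.6 CPM in Plek2+/+ progenitors (log2 fold change 0.94, SE 0.10, adjusted p = 0.00226), beside the same neutrophil marker values. Of 16 genes for the import of carriers into the inner membrane, 7 were higher and 2 lower with the Plek2-/- label and 5 higher and 4 lower with the Plek2+/+ label. Agk, a subunit of the TIM22 carrier translocase, was lower with both (-0.90 and -1.52), while the small translocase chaperones Timm10 (0.88 and 0.56) and Timm8b (1.2 and 1.04) were higher. On library totals Timm10 was not called with either label (0.09 and -0.25), nor Timm8b with the Plek2+/+ label (0.23). Of the 3 outer membrane channels, 2 were higher with the Plek2-/- label and 1, Vdac3, with both (0.93 and 0.97), which was not called on library totals (0.15 and 0.16).

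Of 26 tested enzymes that use carried substrates, 13 were higher and 6 lower in erythroblasts with the Plek2-/- label, and 13 higher and 8 lower with the Plek2+/+ label. Of all genes, 76.7% were called with the Plek2-/- label (37.5% higher and 39.2% lower). With the Plek2+/+ label 73.8% were called (36.0% higher and 37.8% lower). The mitochondrial one-carbon enzymes Mthfd2 (log2 fold change 2.68 and 2.46) and Shmt2 (1.38 and 1.15), carnitine acetyltransferase Crat (2.42 and 2.67) and the mitochondrial phosphoenolpyruvate carboxykinase Pck2 (2.14 and 1.82) rose most. Glud1, the glutamate dehydrogenase fed by glutamate carriers, was lower (-1.50 and -1.22), as were the glutamate carrier Slc25a22 and, on few counts, Slc25a18 with the Plek2-/- label. Pank1, which opens coenzyme A synthesis, was lower as well (-1.65 and -2.03), whereas the coenzyme A carrier Slc25a42 was higher. The medians of the enzymes were 0.21 and 0.07, against -0.07 and -0.06 for all genes. Between the labels 1 enzyme, Glud1, was called lower in Plek2-/- erythroblasts, at -0.45 (SE 0.10, adjusted p = 0.0328), and no enzyme was called in progenitors. Of all genes, 2.84% were called between the labels in erythroblasts and 4.91% in progenitors. The Glud1 call was lost on library totals (adjusted p = 0.0511), without Plek2-/- erythroblast library 2 (0.163) and without Plek2+/+ erythroblast library 1 (0.252) or 2 (0.163). In the same comparison 8 of 11 neutrophil, 5 of 11 B cell and 4 of 9 tested mast cell, basophil and eosinophil markers were also called lower, and their part in the Glud1 value was not tested.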

How the data were processed

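Per the submitters' processing notes, the authors used cutadapt 1.13, STAR 2.5.2a, HTSeq 0.6.1pl and DESeq2 1.14.1 on mouse genome build mm10; the annotation and strand setting were not stated. The authors deposited raw counts per gene, which were tested as deposited, and a second table of normalized signal, which the deposited values show to be those counts divided by 1 size factor per library. Here edgeR 4.0.16 (R 4.3.3) was run with TMM, filterByExpr and quasi-likelihood fits, with Benjamini-Hochberg adjustment over all genes tested. Plek2 labels were compared within each population (4 libraries), and populations and the interaction in 1 fit of 8 libraries. DESeq2 1.42.0, limma-voom (limma 3.58.1), other scalings, other filters and leaving out each library were alternatives. Exon lengths come from GENCODE vM21 (GRCm38), with all 42 members matched, and promoters from RefSeq GRCm38.p6. Library totals of 16038035 to 23521726 counts set the precision, and intervals cover counting error and the spread of 2 libraries a group. Libraries of 1 group differed by more than counting noise (chi-square over degrees of freedom 5.65 to 15.7). This cannot tell separate mice from separate preparations of 1 mouse, and each library entered the fits on its own. Named members are those called in a label comparison or interaction and the 5 most abundant uncalled ones, up to 8 rises and 8 falls between populations at a mean of at least 1 CPM with no overlap, the most abundant of each role and the 5 highest per length; further members were named after their values were seen. The values of 1 member are not reported here, though the counts of members include it. The tests were tested on simulated data. The members and lists were chosen with earlier results of these data known.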

Additional observations from a re-analysis of the deposited data

Results flagged for a closer look

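Slc25a24 stood out because its label difference passed a test for a difference between the 2 populations, in a fit of all 8 libraries. The label difference in erythroblasts minus that in progenitors was -0.70 on the log2 scale (SE 0.18, edgeR adjusted p = 0.0329). The call was lost without Plek2-/- erythroblast library 2, Plek2+/+ erythroblast library 2, Plek2-/- progenitor library 2 or either Plek2+/+ progenitor library (adjusted p = 0.0603 to 0.113), and held in the other 10 of 15 alternatives. It was made up of -0.16 in erythroblasts and 0.58 in progenitors. The summed CPM of 11 neutrophil markers also differed between labels in opposite directions in the populations, and their part in the result was not tested.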

How the results depend on the processing

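The count of members called in erythroblasts was 0 in every alternative. In progenitors the count of 1 became 2 on library totals and 3 without a filter on low counts, and 1 to 6 when 1 library was left out (6 without Plek2-/- library 1 and 4 without Plek2-/- library 2). For the interaction the count of 1 became 2 without the filter, 2 with the replicate block, and 0 to 2 when 1 library was left out. Same-numbered libraries deviated together little or not at all (correlations -0.0763 to 0.102), which with 2 libraries a group cannot show whether they share a mouse. The other counts with the replicate block were 0 members in erythroblasts, 1 in progenitors, 28 with the Plek2-/- label and 26 with the Plek2+/+ label. Over all genes, the count of 348 in erythroblasts became 547 with the authors' size factors, 230 on library totals, 845 without the filter, 579 with the block and 25 to 995 without 1 library; that of 646 in progenitors became 1315 without the filter and 239 to 2649 without 1 library; that of 742 for the interaction became 1215 and 401 to 1175.

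The signs below are for the members and genes chosen for naming in each comparison. Over all tested members, the sign changed in at least 1 alternative for 21 of 35 in erythroblasts (21 when 1 library was left out), 15 of 39 in progenitors (15), 13 of 39 between populations with the Plek2-/- label (3), 11 of 39 with the Plek2+/+ label (6) and 17 of 39 for the interaction (17). On library totals these log2 fold changes between populations turned below 0 with the Plek2-/- label: Slc25a25 -0.17, Slc25a46 -0.25, Slc25a5 -0.46, Slc25a3 -0.59, Slc25a17 -0.61, Slc25a16 -0.27, Slc25a24 -0.66, Slc25a32 -0.42, Slc25a10 -0.55, Slc25a12 -0.64, Brp44l -0.35, Mtch2 -0.11 and Tomm22 -0.091. With the Plek2+/+ label they were Slc25a25 -0.15, Slc25a5 -0.78, Slc25a17 -0.80, Slc25a46 -0.36, Slc25a16 -0.36, Slc25a32 -0.80, Slc25a10 -0.79, Slc25a12 -0.77, Brp44l -0.16, Mtch2 -0.34, Timm10 -0.25, Tomm22 -0.22 and Got1 -0.13. That scaling leaves out the TMM factor, which moves every gene alike. Further turns, all of values near 0, were in progenitors Slc25a12 (-0.018 on library totals, -0.00043 in 1 fit of 8 libraries), Slc25a46 (-0.0051 on library totals) and Slc25a14 (-0.013 with the authors' size factors, -0.034 on library totals, -0.017 in 1 fit of 8 libraries), and for the interaction Slc25a46 (-0.0019 at a mean of at least 1 CPM); the cause was not tested. Among the same choices, with 1 library left out, values crossed 0 in erythroblasts for Slc25a24 (-0.33 to 0.014), Slc25a39 (-0.083 to 0.012) and Slc25a5 (-0.0012 to 0.18); in progenitors for Slc25a12 (-0.0015 to 0.089), Slc25a14 (-0.18 to 0.22) and Slc25a46 (-0.012 to 0.12); between populations for Slc25a24 with the Plek2-/- label (-0.023 to 0.28) and, with the Plek2+/+ label, Slc25a10 (-0.023 to 0.17), Slc25a11 (-0.089 to 0.11), Slc25a12 (-0.0015 to 0.16), Slc25a17 (-0.049 to 0.091), Slc25a30 (-0.24 to 0.0096) and Slc25a5 (-0.026 to 0.12); and for the interaction for Slc25a12 (-0.0026 to 0.15) and Slc25a46 (-0.073 to 0.14). Members under about 1 CPM are limited by depth.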

Other observations

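The count table lists a pair of mitochondrial carriers under older symbols that the symbol rule does not match; both were picked out after their values were seen. Mcart1, for which RefSeq gives the current symbol Slc25a51, encodes the mitochondrial NAD+ carrier. It had 1132 and 1105 CPM in Plek2-/- erythroblasts and 976 and 1090 CPM in Plek2+/+ erythroblasts, against 108 and 107 CPM in Plek2-/- progenitors and 118 and 118 CPM in Plek2+/+ progenitors. It was 10.4-fold higher in erythroblasts with the Plek2-/- label and 8.77-fold higher with the Plek2+/+ label, and its erythroblast level of 195 ± 12.5 CPM per kilobase (SD over 4 libraries) lies beside that of Slc25a39 at 206 ± 6.20. Mcart6 (Slc25a53), whose substrate is not settled, stood at 2.43 and 3.20 CPM in Plek2-/- erythroblasts and 3.92 and 3.73 CPM in Plek2+/+ erythroblasts, against 4.87 and 5.08 CPM in Plek2-/- progenitors and 5.78 and 5.09 CPM in Plek2+/+ progenitors. Neither differed between the labels beyond the threshold in either population.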
